A study of Mus musculus with 12 samples.

Results

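The 9 genes described here encode transcriptional regulators that mark the layers of the cerebral cortex: *Cux1*, *Cux2* and *Rorb* for the upper layers, *Fezf2* and *Bcl11b* for layer 5, *Tbr1*, *Foxp2* and *Tle4* for layer 6, and *Neurod6* for excitatory neurons of all layers. They were chosen by gene name, and each name was found among the 48526 genes of the deposited tables, in both the table of the 10-month animals and that of the 3-month animals. RNA of whole cortex was sequenced from 12 untreated mice on a C57Bl/6 background, 3 in each of 4 groups. The groups were 10-month-old mice labelled TAU58/2, 10-month-old mice labelled non-transgenic control, 3-month-old mice labelled TAU58/2, and 3-month-old non-transgenic controls. TAU58/2 mice carry a human tau transgene with the P301S mutation, expressed in neurons from a Thy1 promoter, on top of their own tau gene, and tau protein aggregates in their neurons. The comparisons ask how the layer genes differ between genotype labels at each age and between ages within a label. Values are FPKM, that is fragments scaled by transcript length and by the size of the library.

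As background, neurons of the cortex lie in layers that differ in where their axons go. Neurons of the upper layers connect areas of cortex, layer 4 receives input from the thalamus, layer 5 sends axons to the brainstem and spinal cord, and layer 6 sends axons back to the thalamus. Each type of projection neuron is set up during development by a small group of transcription factors that in part repress each other, and several of these genes stay active in the adult, where they serve as layer markers.

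The promoters of *Neurod6*, *Rorb* and *Tle4* are printed because these genes were each above 1 FPKM in some libraries and listed at exactly 0 in others, and because RefSeq gives each a window free of exons. *Fezf2*, at 0 in 1 library, is left out because its window overlaps an exon, and a second *Rorb* window (chr19:19001118-19001367), which held no motif match, is not printed. Each is the window of 250 bases just upstream of the annotated start, from RefSeq with build GRCm38.p6, 5′ to 3′ on the strand of the gene, all on the minus strand, and none of its bases is exonic in GENCODE. Capitals mark matches to any of 5 motifs searched on both strands; no match overlapped another. The first motif, spelled TATAAA, is the core of the TATA box. The second, the CCAAT box, was searched by its letters alone. The GC box was searched as GGGCGG, an E-box of the kind bound by NeuroD factors as CAGATG, and a site bound by T-box factors as AGGTGTGA.
*Neurod6* promoter, chr6:55681264-55681513: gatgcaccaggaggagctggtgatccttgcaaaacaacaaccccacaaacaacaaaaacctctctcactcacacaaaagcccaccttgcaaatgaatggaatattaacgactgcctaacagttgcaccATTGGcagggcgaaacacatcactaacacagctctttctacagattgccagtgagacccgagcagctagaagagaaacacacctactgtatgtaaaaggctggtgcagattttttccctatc
*Rorb* promoter, chr19:19111197-19111446: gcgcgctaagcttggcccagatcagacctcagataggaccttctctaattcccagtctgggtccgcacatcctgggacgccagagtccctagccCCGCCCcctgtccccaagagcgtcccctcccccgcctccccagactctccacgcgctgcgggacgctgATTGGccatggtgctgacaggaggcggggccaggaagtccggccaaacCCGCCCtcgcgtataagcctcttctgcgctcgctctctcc
*Tle4* promoter, chr19:14598184-14598433: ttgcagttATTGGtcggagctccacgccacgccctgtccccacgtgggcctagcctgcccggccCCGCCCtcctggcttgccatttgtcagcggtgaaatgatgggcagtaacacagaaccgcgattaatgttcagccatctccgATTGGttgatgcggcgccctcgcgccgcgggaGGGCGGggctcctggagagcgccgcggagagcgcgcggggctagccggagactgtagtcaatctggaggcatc
The *Neurod6* window held 1 match, a CCAAT box on the opposite strand 122 bases before the start. The *Rorb* window held a CCAAT box and 2 GC boxes, and the *Tle4* window held 2 CCAAT boxes and 2 GC boxes. The TATA box, the E-box and the T-box site were not in these 3 windows. Among 32851 RefSeq promoter windows of the same length, 33.9% held the CCAAT box, 32.7% the GC box, 12.4% the TATA box, 14.4% the E-box and 1.12% the T-box site. The GC content was 46.0% for *Neurod6*, 66.0% for *Rorb* and 65.2% for *Tle4*, against a median of 52.4% over all windows. RefSeq windows were found for 8 of the 9 genes.

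The totals of the 12 libraries lay between 125933 and 158077 FPKM, and 12828 to 13914 genes were above 0. The number of reads behind a value is unknown. Of the 4390 genes whose median reached 5 FPKM, 91 to 226 genes per library were more than 8-fold below their median, the most in the 10-month TAU58/2 replicate 3. Libraries of the same group were no more alike than libraries of different groups, with Pearson correlations across genes of 0.664 to 0.743 within groups and 0.662 to 0.741 between groups. *Mapt*, the tau gene, had 42.6, 12.4 and 3.31 FPKM in the libraries labelled TAU58/2 and 42.7, 8.13 and 9.08 FPKM in the control libraries at 10 months, so it did not follow the labels there. At 3 months *Mapt* had 47.6, 47.5 and 43.3 FPKM in the libraries labelled TAU58/2 and 6.64, 12.0 and 7.47 FPKM in control libraries. The 10-month TAU58/2 replicate 1 also held 11228 FPKM of the growth hormone gene *Gh* and 1482 FPKM of the prolactin gene *Prl*, which are pituitary transcripts. *Slc17a7*, the vesicular glutamate transporter of cortical excitatory neurons, was at 98.2 to 233 FPKM in the 12 libraries, and the thalamic markers summed to 0.0992 to 1.58 FPKM with *Cdhr1* at 0.

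Across the 12 libraries the median level was highest for *Neurod6* at 20.2 FPKM, followed by *Tbr1* at 18.3, *Fezf2* at 8.03, *Cux2* at 1.98, *Cux1* at 1.93 and *Bcl11b* at 0.176 FPKM. *Rorb*, *Tle4* and *Foxp2* had a median of 0 and were listed at 0 in 7, 7 and 9 libraries. Several neighbours in this order were not apart within libraries. *Neurod6* exceeded *Tbr1* in 8 of 12 libraries, *Tbr1* exceeded *Fezf2* in 8, *Fezf2* exceeded *Cux2* in 10 and *Cux2* exceeded *Cux1* in 7, while *Cux1* exceeded *Bcl11b* in 12 of 12. FPKM is scaled to transcript length, which allows levels of different genes to be set side by side. That scaling does not address values that switch within a group, such as *Neurod6* at 0, 24.0 and 2.28 FPKM in the 10-month TAU58/2 libraries. The order by median is therefore rough, and whether a median at or near 0 reflects low expression or the quantification was not tested.

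**Figure D1:**
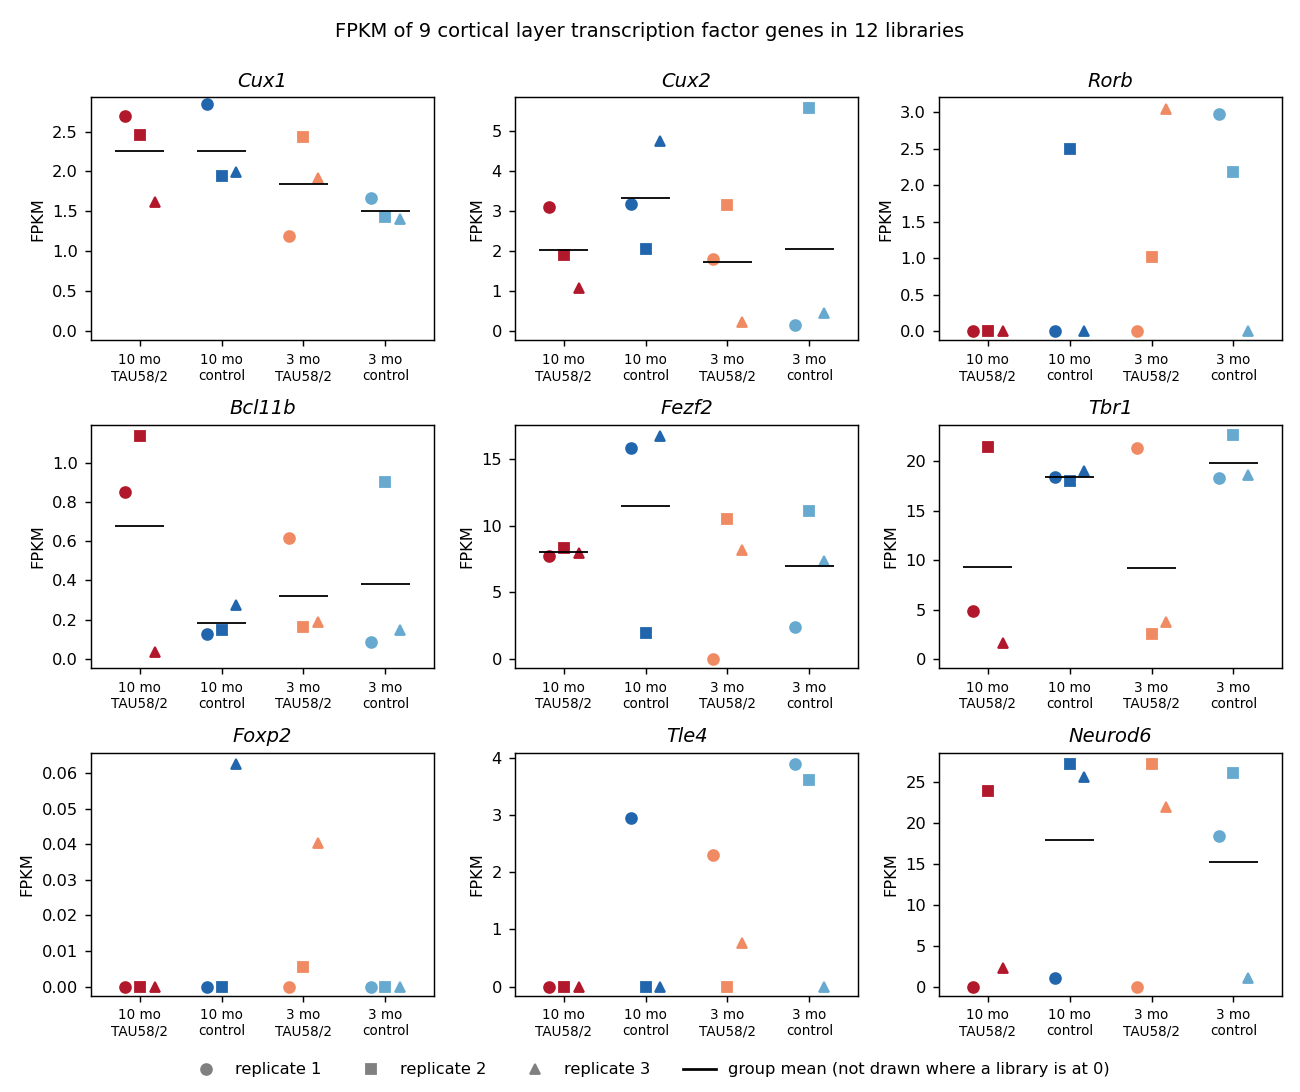
FPKM of each of the 9 genes (vertical axes, linear) in each library, grouped on the horizontal axis by age and genotype label, with symbols for the replicate number and a line for the group mean where no library is at 0. *Tbr1* lies between 18.0 and 22.6 FPKM in the 6 control libraries and at 1.57 to 4.80 FPKM in 4 of the 6 libraries labelled TAU58/2, while every group has *Neurod6* values both at or below 2.28 FPKM and between 18.5 and 27.3 FPKM.

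Of the 9 genes, 7 averaged 1 FPKM or more in 1 or more groups and were tested, together with all other genes that did, 9846 in total. *Bcl11b* and *Foxp2* stayed below this level and were not tested. *Rorb* and *Tle4* passed only through the 3-month groups. Of the 7 tested genes, 0 had an adjusted p below 0.05 in limma for TAU58/2 against control at 10 months, where 0.0102% of all tested genes were called, and 0 at 3 months, where 0.0406% were called. None of the 7 had an unadjusted p below 0.05 at either age, where 4.4% of all genes did at 10 months and 3.39% at 3 months. The log2 difference was below 0 for 7 of 7 at 10 months, with a median of -1.57 against 0.01 over all tested genes, and for 5 of 7 at 3 months, with a median of -0.95 against 0.02. Of the 9846 tested genes, 4802 were below 0 at 10 months and 4663 at 3 months. At 10 months *Cux1* (-0.01) and *Fezf2* (-0.02) were close to 0, and *Rorb* and *Tle4* were each above 0 in only 1 library, a control. These group values depend on the added constant and on single libraries. With 1 FPKM added before taking logs in place of 0.1 FPKM, the medians were -0.60 at 10 months and -0.23 at 3 months. The counts below 0 stayed at 7 of 7 and 5 of 7. Without the 10-month control replicate 1 the 10-month values were below 0 for 4 of 7 (median -0.72), and without the 3-month TAU58/2 replicate 1 the 3-month values were below 0 for 2 of 7 (median 0.50). In a further fit very low values were set missing, that is values more than 8-fold below the median of genes whose median reached 1 FPKM. The zeros of *Rorb* and *Tle4*, whose median is 0, stayed in. In that fit 3 of 7 were below 0 at 3 months (median 0.15) and 7 of 7 at 10 months (median -0.73).

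Among the upper-layer genes, *Cux1*, a cut-like homeodomain factor of layers 2 to 4, was the steadiest of the 7. It had 2.70, 2.46 and 1.62 FPKM in the libraries labelled TAU58/2 and 2.84, 1.95 and 1.99 FPKM in control libraries at 10 months, with means of 2.26 ± 0.566 and 2.26 ± 0.506 FPKM (SD, n = 3 each). In 3-month animals it had 1.19, 2.43 and 1.92 FPKM in the TAU58/2 libraries and 1.67, 1.43 and 1.41 FPKM in control libraries, with means of 1.85 ± 0.625 and 1.50 ± 0.148 FPKM (SD, n = 3 each). The genotype groups overlapped at both ages. The log2 difference was -0.01 (SE 0.37, 95% interval -0.84 to 0.82) at 10 months and 0.23 (SE 0.37) at 3 months. Averaged over both ages, a comparison added after the data had been seen, it was 0.11 with a 95% interval of -0.48 to 0.69.

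*Cux2*, the close relative of *Cux1* with a tighter restriction to upper-layer neurons, varied more. It had 3.09, 1.91 and 1.08 FPKM in the libraries labelled TAU58/2 and 3.18, 2.05 and 4.76 FPKM in control libraries at 10 months. At 3 months it had 1.81, 3.15 and 0.237 FPKM in the TAU58/2 libraries and 0.150, 5.56 and 0.470 FPKM in control libraries, so that the highest and the lowest of its 12 values both came from 3-month controls. The log2 difference was -0.73 (SE 1.15) at 10 months and 0.46 (SE 1.15) at 3 months, and the groups overlapped at both ages.

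*Rorb*, a nuclear receptor of the retinoid-related orphan family that marks layer 4, was listed at 0 in all 3 libraries labelled TAU58/2 and at 0, 2.49 and 0 FPKM in control libraries at 10 months. At 3 months the values were 0, 1.02 and 3.05 FPKM in the TAU58/2 libraries and 2.97, 2.18 and 0 FPKM in control libraries. The gene was above 0 in 1 of 6 libraries at 10 months and in 4 of 6 at 3 months. Zeros were found in every group, and log2 differences of this gene are set in part by the constant of 0.1 FPKM added before taking logs. They were -1.57 (SE 1.78) at 10 months and -0.33 (SE 1.78) at 3 months.

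Of the layer 5 genes, *Fezf2*, a zinc finger factor needed for the subcerebral projection neurons, lay close together in 1 group and far apart in the others. It had 7.69, 8.34 and 7.92 FPKM in the 10-month libraries labelled TAU58/2 and 15.8, 1.96 and 16.7 FPKM in 10-month control libraries. The 3-month values were 0, 10.5 and 8.14 FPKM in the TAU58/2 libraries and 2.40, 11.1 and 7.36 FPKM in control libraries. The 10-month TAU58/2 values lay between the lowest and the other two control values. The log2 difference was -0.02 (SE 1.58) at 10 months and -1.53 (SE 1.58) at 3 months, the second resting on the library listed at 0.

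*Bcl11b*, the zinc finger factor also called Ctip2 that acts downstream of *Fezf2* in these neurons and is also strong in striatum, was low throughout. It had 0.851, 1.14 and 0.0373 FPKM in the libraries labelled TAU58/2 and 0.126, 0.146 and 0.276 FPKM in control libraries at 10 months. In the younger animals it had 0.615, 0.164 and 0.188 FPKM in the TAU58/2 libraries and 0.0874, 0.902 and 0.149 FPKM in control libraries. Values near 1 FPKM occurred under both labels, and the groups overlapped. In a fit without the 1 FPKM filter, which kept all genes above 0 in at least 3 libraries, the log2 difference was 0.98 (SE 0.95) at 10 months. It was 0.07 (SE 0.95) at 3 months.

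*Tbr1*, a T-box factor that specifies corticothalamic neurons of layer 6 and represses *Fezf2* there, had the smallest unadjusted p of the 7 genes in each genotype comparison. It had 4.80, 21.5 and 1.57 FPKM in the libraries labelled TAU58/2 and 18.4, 18.0 and 19.0 FPKM in control libraries at 10 months, with means of 9.28 ± 10.7 and 18.4 ± 0.504 FPKM (SD, n = 3 each). At 3 months it had 21.3, 2.51 and 3.69 FPKM in the TAU58/2 libraries and 18.3, 22.6 and 18.6 FPKM in control libraries, with means of 9.18 ± 10.5 and 19.8 ± 2.40 FPKM (SD, n = 3 each). At each age 2 of 3 TAU58/2 libraries lay below all controls and 1 lay among or above them, so the groups overlapped. Of those below all controls at 10 months, replicate 1 held 11228 FPKM of *Gh*. Replicate 3 had 226 genes more than 8-fold below their median, the most of all libraries. Of those below all controls at 3 months, replicates 2 and 3 had 114 and 112 such genes. The choroid plexus gene *Ttr* had 439 FPKM in the 10-month TAU58/2 replicate 1 and 300 FPKM in the 3-month TAU58/2 replicate 3. Its highest value, 728 FPKM, was in the 3-month control replicate 1, where *Tbr1* had 18.3 FPKM. Whether these library traits bear on the *Tbr1* values was not tested. The log2 difference was -1.72 (SE 0.91, 95% interval -3.76 to 0.31, limma adjusted p = 0.969) at 10 months. It was -1.73 (SE 0.91, 95% interval -3.77 to 0.30, limma adjusted p = 1.0) at 3 months. In bulk tissue, fewer cells of a type and less of an RNA per cell cannot be told apart.

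Averaged over both ages, the added comparison, the *Tbr1* log2 difference was -1.73 (SE 0.65, 95% interval -3.17 to -0.29, limma adjusted p = 0.975), and 0 of the 7 genes were called, where 0.0508% of all genes were. An exact permutation of the labels within each age, two-sided and also added after the data had been seen, gave p = 0.075 over 400 arrangements, of which the smallest possible is 0.005. The unadjusted limma p was below 0.05 for 1 of the 7, *Tbr1*, at 0.0232, and for 3.75% of all tested genes. *Tbr1* was lower than all 6 controls in 4 of 6 TAU58/2 libraries, a pattern shared with 229 of the 9846 tested genes (2.33%) when at least 4 libraries are asked for, while 252 genes (2.56%) had at least 4 TAU58/2 libraries above all 6 controls. The unadjusted limma p moved across 0.05 when single libraries were left out. It was 0.0512 without the 10-month TAU58/2 replicate 3, 0.0574 without the 3-month TAU58/2 replicate 2 and 0.0529 without the 3-month TAU58/2 replicate 3. Without the 10-month TAU58/2 replicate 2 it was 0.0025 (adjusted 0.583), and without the 3-month TAU58/2 replicate 1 it was 0.0034. The averaged log2 difference ran from -2.21 to -1.29 over the fits that left out single libraries. At 10 months the log2 difference was -2.69 without replicate 2 and -0.85 without replicate 3 of the TAU58/2 group, and at 3 months it was -2.66 without replicate 1 and -1.14 without replicate 2 of that group.

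The 4 TAU58/2 libraries with *Tbr1* below all controls did not have the lowest *Slc17a7*, and *Neurod6* was at or below 2.28 FPKM in 2 of them. These genes were set beside *Tbr1* after their values were seen. In the 4 libraries *Slc17a7* had 193 and 211 FPKM at 10 months and 199 and 233 FPKM at 3 months. *Slc17a7* had 98.2 and 208 FPKM in the other two TAU58/2 libraries and 102 to 230 FPKM in the 6 controls. *Neurod6* was at 0 and 2.28 FPKM in the 10-month pair and at 27.2 and 22.0 FPKM in the 3-month pair.

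**Figure D2:**
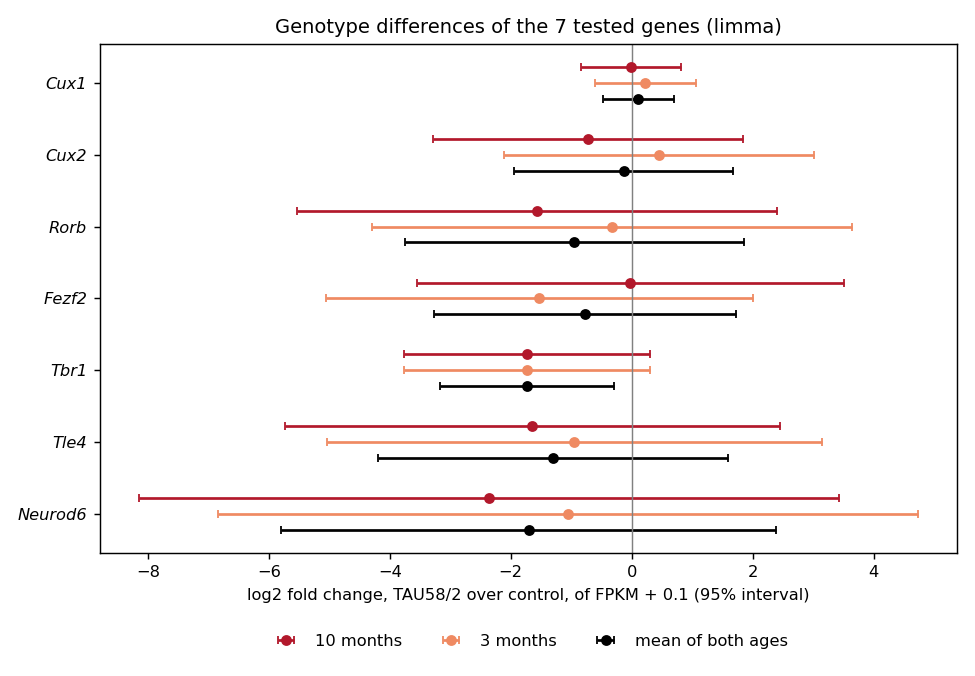
Log2 difference on the log2(FPKM + 0.1) scale, TAU58/2 minus control, for each of the 7 tested genes, with 95% intervals from the limma fit. Points are given for 10 months, 3 months and the mean of both ages, the comparison added after the data had been seen. Every interval at a single age includes 0. Averaged over both ages, the *Tbr1* interval of -3.17 to -0.29 does not include 0, while those of the other genes do. In each comparison *Cux1* has the narrowest interval and *Neurod6* the widest. The *Tbr1* points lie at -1.72 at 10 months and -1.73 at 3 months.

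*Tle4*, a Groucho-family corepressor that does not bind DNA by itself and marks corticothalamic neurons of layer 6, was listed at 0 in all 3 libraries labelled TAU58/2 and at 2.95, 0 and 0 FPKM in control libraries at 10 months. The 3-month values were 2.30, 0 and 0.760 FPKM in the TAU58/2 libraries and 3.89, 3.62 and 0 FPKM in control libraries. Like *Rorb*, it was above 0 in 1 of 6 libraries at 10 months and in 4 of 6 at 3 months. The log2 differences, again set in part by the added constant, were -1.64 (SE 1.83) at 10 months and -0.95 (SE 1.83) at 3 months. *Foxp2*, a forkhead factor of layer 6 neurons, had at most 0.0626 FPKM in any library. It was listed at 0 in all 3 TAU58/2 libraries and at 0, 0 and 0.0626 FPKM in control libraries at 10 months, and had 0, 0.0055 and 0.0403 FPKM in TAU58/2 libraries and 0 in all 3 control libraries at 3 months. Of the 9 genes it was the one at or near 0 throughout.

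*Neurod6*, a basic helix-loop-helix factor expressed in most excitatory neurons of cortex and hippocampus, had the widest spread of the 7 genes. It had 0, 24.0 and 2.28 FPKM in the libraries labelled TAU58/2 and 0.999, 27.3 and 25.6 FPKM in control libraries at 10 months. In 3-month animals it had 0, 27.2 and 22.0 FPKM in the TAU58/2 libraries and 18.5, 26.2 and 0.994 FPKM in control libraries. There were 7 libraries that lay between 18.5 and 27.3 FPKM, the other 5 at or below 2.28 FPKM, and both kinds occurred in every group. The log2 difference was -2.36 (SE 2.60, 95% interval -8.15 to 3.43) at 10 months and -1.05 (SE 2.60) at 3 months. Fits that left out single libraries gave -4.23 to -0.28 at 10 months and -2.49 to 1.60 at 3 months. The ends at -0.28 and 1.60 came without the TAU58/2 replicate 1 of each age, listed at 0. With very low values set missing the differences were -0.14 and 0.15. The 3-month mean was 16.4 FPKM in TAU58/2 and 15.2 FPKM in control libraries.

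The spread between libraries of the same group differed widely among the 7 tested genes. The residual SD on the log2 scale was 0.350 for *Cux1*, at percentile 21.9 of all tested genes, 1.23 for *Tbr1* (percentile 66.4), 1.52 for *Cux2* (73.9), 2.15 for *Fezf2* (88.8), 2.31 for *Rorb* (91.5), 2.39 for *Tle4* (92.5) and 3.54 for *Neurod6* (99.0). The median of all tested genes was 0.730. *Neurod6* was more than 4-fold below its own median in 5 libraries, as were as many or more libraries for 1.52% of the 1970 genes with a median within 2-fold of it. *Tbr1* was that low in 3 libraries, a count reached by 7.62% of 2113 genes of like level, *Fezf2* in 2 (14.7% of 3290 genes) and *Cux2* in 3 (19.2% of 3260 genes). All 3 low *Tbr1* values were in libraries labelled TAU58/2, whereas the 5 low *Neurod6* values were in 3 TAU58/2 and 2 control libraries. At least 3 low TAU58/2 libraries and 0 low control libraries were found for 89 of the tested genes (0.904%), and the mirror pattern for 65 (0.66%).

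**Figure D3:**
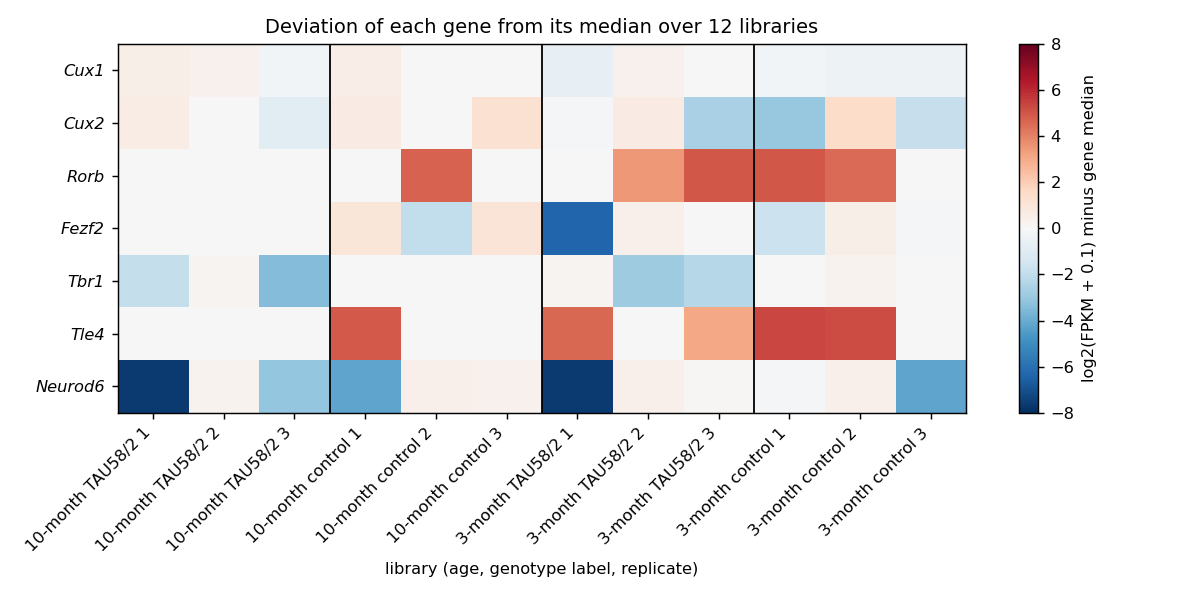
Log2(FPKM + 0.1) of the 7 tested genes (rows) in the 12 libraries (columns, by group), as the difference from each gene's median over the 12 libraries. The low cells of *Tbr1*, *Neurod6*, *Fezf2* and *Cux2*, 13 by the 4-fold criterion, are spread over 9 libraries, 4 of which hold 2 each, and *Rorb* and *Tle4*, with a median of 0, show only zeros or higher values.

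By the 4-fold criterion, *Tbr1*, *Neurod6*, *Fezf2* and *Cux2* together had 13 low values, 8 of them in 4 libraries that held 2 each and 5 in libraries that held 1. *Tbr1* and *Neurod6* were low together in 1 library, the 10-month TAU58/2 replicate 3. Over the 21 pairs of tested layer genes, Spearman correlations across the 12 libraries ran from -0.27 for *Cux2* and *Rorb* to 0.67 for *Cux2* and *Fezf2*, and that of *Tbr1* and *Neurod6* was -0.01. These are descriptions over libraries of 4 groups that share their scaling. The FPKM of the 9 genes summed to 19.1, 59.3 and 14.5 in the TAU58/2 libraries and 44.3, 53.8 and 68.4 in control libraries at 10 months, and to 27.2, 47.0 and 40.0 in the TAU58/2 libraries and 47.9, 73.5 and 29.0 in control libraries at 3 months. The sums of the genotype groups overlapped at both ages.

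The balance of upper and deep layers was described as the mean log2(FPKM + 0.1) of *Cux1*, *Cux2* and *Rorb* minus that of *Bcl11b*, *Fezf2*, *Tbr1*, *Foxp2* and *Tle4*. It was 0.24, -0.55 and 0.38 in the TAU58/2 libraries and -0.89, 1.86 and -0.19 in control libraries at 10 months. At 3 months it was -0.39, 1.81 and 0.34 in the TAU58/2 libraries and -0.21, 0.12 and -0.88 in control libraries. The groups overlapped at both ages, and the means of 0.02 in TAU58/2 and 0.26 in control at 10 months, and of 0.59 and -0.32 at 3 months, differed by less than 1 SD of the wider group of each pair (1.43 for 10-month controls and 1.12 for 3-month TAU58/2). With 1 FPKM added instead, the 3-month means were -0.01 in TAU58/2 and -0.59 in control libraries, further apart than the wider SD of 0.50. With very low values left out by the rule above, the zeros of *Rorb*, *Tle4* and *Foxp2* stayed in. Single libraries then moved or changed sign, to -1.15 in the 3-month TAU58/2 replicate 1 and to 0.87 in the 3-month control replicate 1. The genotype groups overlapped at both ages in these settings too.

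**Figure D4:**
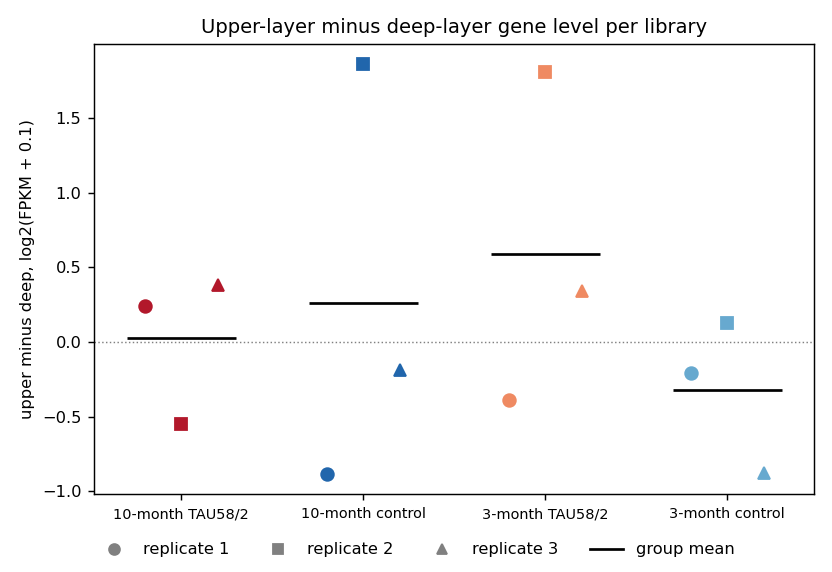
Mean log2(FPKM + 0.1) of the 3 upper-layer genes minus that of the 5 deep-layer genes (vertical axis, log2 units) in each library, by group, with a line for the group mean. The 4 groups overlap, and the values run from -0.89 to 1.86, both in 10-month controls.

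The genotype difference did not itself differ detectably between ages. In the age by genotype interaction 0 of the 7 genes were called in limma, where 0.0508% of all tested genes were, and 0 of the 7 had an unadjusted p below 0.05, where 3.32% of all genes did. The interaction was 0.01 (SE 1.29) for *Tbr1* and -0.24 (SE 0.53) for *Cux1* on the log2 scale.

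Between ages, 10 minus 3 months, 0 of the 7 genes were called in TAU58/2 libraries, where 0.0203% of all tested genes were, and 0 in control libraries, where 0.0305% were. None of the 7 had an unadjusted p below 0.05 in either label, where 4.31% of all genes did in TAU58/2 and 4.19% in control libraries. The 10-month and 3-month values come from separate deposited tables, so age and table cannot be told apart. *Cux1* was the one gene of the 7 whose control values did not overlap between ages, with 2.26 ± 0.506 FPKM at 10 months and 1.50 ± 0.148 FPKM at 3 months (SD, n = 3 each), a separation seen in 10.1% of all tested genes. Its log2 difference was 0.54 (SE 0.37) in control libraries and 0.30 (SE 0.37) in TAU58/2 libraries, where the ages overlapped as they did for all but 9.43% of tested genes. *Cux2* differed by 1.80 (SE 1.15) in control and 0.62 (SE 1.15) in TAU58/2 libraries. *Tbr1* differed by -0.10 (SE 0.91) in control and -0.09 (SE 0.91) in TAU58/2 libraries, and in neither label was the difference beyond its error.

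In the authors' deposited table, the q-values of the 9 genes ran from 0.854 upward at 10 months and from 0.904 upward at 3 months. The authors' deposited table gave *Cux2* a log2 fold change of -0.47 at 3 months and *Cux1* one of 0.08 at 10 months, with signs opposite to the limma values of 0.46 and -0.01. The authors' deposited table gave *Tbr1* a log2 fold change of -1.23 with q = 0.854 at 10 months and of -1.37 with q = 0.904 at 3 months. The test behind these values is not stated in the file headers.

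The genes differ in size by GENCODE coordinates on GRCm38. *Neurod6* (chr6:55677822-55681263, minus strand) spans 3.4 kb with 1 annotated transcript, *Fezf2* (chr14:12342094-12348189, minus strand) 6.1 kb and *Tbr1* (chr2:61802930-61814114, plus strand) 11.2 kb. The other 6 span 93.2 kb (*Bcl11b*, chr12:107910403-108003602) to 540.6 kb (*Foxp2*, chr6:14901349-15441977). The 3 short genes were the 3 with the highest medians. Among tested protein-coding genes, the median level was 5.27 FPKM for 4264 genes under 20 kb and 2.97 FPKM for 1462 genes of 80 kb or more, and 19.9% of the short and 31.1% of the long genes were listed at 0 in at least 1 library. Genes that overlap *Cux1*, *Cux2* and *Foxp2* were at 0.0467 FPKM or less in every library, and no gene overlaps the other 6.

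**Figure D5:**
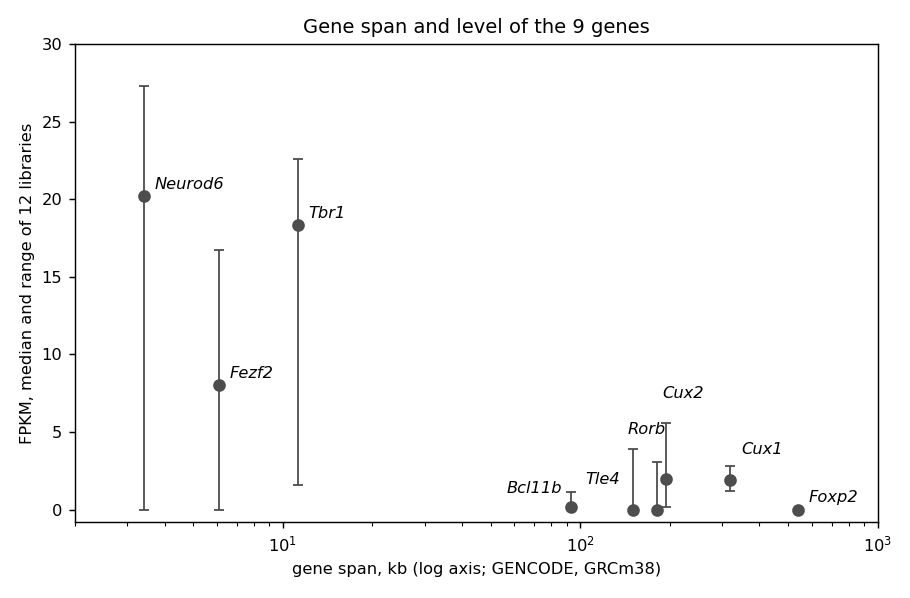
Gene span in kb (horizontal axis, log scale) and level in FPKM (vertical axis, linear) of the 9 genes, with a point for the median and bars for the lowest and highest of the 12 libraries. *Neurod6*, *Fezf2* and *Tbr1*, at 3.4 to 11.2 kb, lie above the 6 genes that span 93.2 kb or more.

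For each tested gene the 2 other tested genes with the most similar rank order over the 12 libraries were looked up. They were *Sh3rf1* (Spearman 0.94) and *Foxk1* (0.90) for *Tbr1*, and *Sfmbt1* (0.94) and *Clstn2* (0.89) for *Neurod6*. For *Cux1* they were *Gpbp1l1* (0.90) and *Sik3* (0.88), and for *Cux2* the cofilin kinase gene *Limk1* (0.92) and the phospholipase gene *Plcg1* (0.88). *Rorb* was most like *Tmem63b* (0.87) and *Stard8* (0.85), *Fezf2* most like *Usp13* (0.88) and *Fgd1* (0.88), and *Tle4* most like *Nkiras2* (0.89) and the kinase gene *Akt2* (0.88). These are the highest values of a search through all tested genes, so they describe these 12 libraries only, and none of the 14 genes belongs to the layer lists.

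Lists of other layer genes gave no call in either genotype comparison. Of 16 upper-layer and layer 4 genes, 13 were tested, and 4 were higher and 9 lower in TAU58/2 than in control libraries at 10 months (median log2 difference -0.18), and 6 higher and 7 lower at 3 months (-0.11). *Kitl*, the ligand of the receptor Kit, had 0.541, 5.33 and 0.277 FPKM in TAU58/2 libraries and 7.40, 7.10 and 6.22 FPKM in control libraries at 10 months, without overlap (log2 difference -2.67, SE 1.20, limma adjusted p = 0.969). *Whrn*, which encodes the scaffold protein whirlin, did not overlap either at 10 months, with 4.04, 3.74 and 3.63 FPKM in TAU58/2 and 3.10, 1.57 and 2.06 FPKM in control libraries. Groups that do not overlap were found for 8.26% of all tested genes at 10 months. At 3 months *Rasgrf2*, a Ras exchange factor gene of layer 2 and 3, had 9.45, 12.3 and 2.10 FPKM in TAU58/2 and 3.16, 1.40 and 1.61 FPKM in control libraries, with overlap, and *Rspo1* had a log2 difference of -0.79 (SE 0.52).

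Of 14 layer 5 genes, 9 were tested, with 2 higher and 7 lower at 10 months (median log2 difference -0.20) and 5 higher and 4 lower at 3 months (0.02). *Ldb2*, a LIM-domain binding cofactor gene of subcerebral neurons, had 5.09, 7.08 and 2.00 FPKM in TAU58/2 libraries and 6.30, 7.67 and 9.83 FPKM in control libraries at 10 months (log2 difference -0.89, SE 0.40, limma adjusted p = 0.969). *Crym*, the crystallin mu gene, had log2 differences of -0.31 at 10 months and 0.33 at 3 months (SE 0.28 each), and *Crim1* one of -2.94 (SE 1.77) at 3 months. Of 14 layer 6 and subplate genes, 9 were tested, with 4 higher and 5 lower at 10 months (median -0.02) and 6 higher and 3 lower at 3 months (0.23). *Zfpm2* had 2.61, 2.45 and 0 FPKM in TAU58/2 and 0, 0 and 0.639 FPKM in control libraries at 10 months, and 2.27, 0.613 and 1.86 FPKM in TAU58/2 and 0, 1.03 and 0 FPKM in control libraries at 3 months. The log2 difference of the neurotensin receptor gene *Ntsr1* was 1.71 (SE 1.65) at 10 months, and that of *Nr4a2*, a subplate and claustrum nuclear receptor gene, was 0.68 (SE 0.39) at 3 months. None of these passed the test.

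Of 14 genes of glutamatergic neurons, *Tbr1* among them, 13 were tested, with 3 higher and 10 lower at 10 months (median log2 difference -0.15) and 6 higher and 7 lower at 3 months (-0.02). *Slc30a3*, the zinc transporter of glutamatergic vesicles, had 35.2, 16.9 and 46.7 FPKM in TAU58/2 and 19.3, 19.7 and 16.8 FPKM in control libraries at 10 months (log2 difference 0.70, SE 0.52). *Nptx1* had a log2 difference of 0.91 (SE 0.68) at 10 months, and *Camk2a* and *Slc17a7* had 0.68 (SE 0.49) and 0.40 (SE 0.33) at 3 months. Of 18 genes of partners and relatives of the layer factors, 9 were tested, with 4 higher and 5 lower at 10 months (median -0.15) and 5 higher and 4 lower at 3 months (0.44); *Eomes* and *Fezf1* were among those at 0 in all 12 libraries. The Groucho-family gene *Tle1* had 1.52, 1.87 and 2.09 FPKM in TAU58/2 and 1.10, 1.23 and 1.33 FPKM in control libraries at 3 months, without overlap, as for 7.98% of all tested genes (log2 difference 0.53, SE 0.35). Its relative *Tle2* had a log2 difference of 1.09 (SE 0.55) at 10 months, the deacetylase gene *Hdac2* one of -0.41 (SE 0.30) at 10 months, and the corepressor gene *Ctbp1* one of 0.74 (SE 0.48) at 3 months.

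Markers of other cell types and regions were not called in either genotype comparison. At 10 months the number higher in TAU58/2 than in control libraries was 4 of 8 tested striatal genes, 2 of 4 hippocampal, 7 of 12 inhibitory neuron, 5 of 8 astrocyte, 7 of 8 oligodendrocyte, 5 of 8 microglia, 2 of 3 endothelial, 6 of 6 pituitary and 1 of 1 choroid plexus genes. At 3 months it was 4 of 8 striatal, 3 of 4 hippocampal, 6 of 12 inhibitory neuron, 4 of 8 astrocyte, 4 of 8 oligodendrocyte, 3 of 8 microglia, 2 of 3 endothelial, 3 of 6 pituitary and 1 of 1 choroid plexus genes. The pituitary genes summed to 1.01 to 13477 FPKM in TAU58/2 and 8.22 to 19.5 FPKM in control libraries at 10 months. At that age *Lhb* and *Cga* were above 0 only in the TAU58/2 replicate 1, which also held 11228 FPKM of *Gh*. That library alone set their sign and took them past the filter at 10 months. None of the 8 thalamic genes was high enough to be tested. The oligodendrocyte genes summed to 314 to 629 FPKM in TAU58/2 and 238 to 411 FPKM in control libraries at 10 months. At that age *Tbr1* was below all controls in 2 of 3 TAU58/2 libraries. The oligodendrocyte sums at 3 months were 312 to 525 FPKM in TAU58/2 and 310 to 442 FPKM in control libraries. The hippocampal genes, of which *Dsp* and *Prox1* were at 0 throughout, summed to 55.4 to 63.8 FPKM in TAU58/2 and 42.1 to 60.9 FPKM in control libraries at 10 months. The part of these other cell types in the layer gene values was not tested.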

How the data were processed

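RNA of the cortex of 12 mice was measured, 3 per age and genotype label; samples were grouped by their labels, which call them biological replicates. The deposited values are FPKM per gene, in a table per age. Builds mm10 and GRCm38 and the tools HISAT2 2.0.4, StringTie 1.3.0, SAMtools and R 3.4.2 are named in the submitters' processing notes, with no options or annotation. The authors' tables also hold fold changes (a ratio), log2 fold changes, p-values and q-values of a test not stated in the file headers; these are quoted only as the authors' deposited table. Libraries were strand-specific and depleted of ribosomal RNA, per the labels' protocols. Read depth is unknown: between 9.09% and 13.8% of values below 0.1 FPKM shared a common step (within 0.01 on a log scale), giving relative depths of 1.07 to 1.37 times that of the 10-month control replicate 1, and whole reads were not recovered. An exact 0 is reported as listed at 0.

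FPKM were analysed as log2(FPKM + 0.1), a scale that understates changes of low genes. The 9846 genes averaging 1 FPKM or more in 1 or more groups were fitted in limma 3.58.1 under R 4.3.3 (lmFit, contrasts.fit, eBayes with trend and robust), all 12 libraries in 1 model with a mean per group, on the untested assumption that values of both tables are comparable. P-values were adjusted by Benjamini-Hochberg over these genes with a threshold of 0.05. The fit was checked on simulated data with normal noise, in which only genes of small spread were given a large change. That check does not cover genes with exact zeros or a spread as wide as that of the tested layer genes other than *Cux1*. The members and gene lists were chosen with earlier results of these data known. Genes named are the 9 members, the 2 tested genes with the smallest p of each list in each genotype comparison and the 2 most correlated with each member; of the genes it picks from lists of other cell types, those not named are covered by counts and sums. *Slc17a7* beside *Tbr1*, *Rprm*, *Pou3f3* and the library checks were named outside this rule. Alternatives changed the added constant, filter, scaling, library weights, moderation, age pooling, replicate block and single libraries. The genotype comparison averaged over both ages and its exact permutation test (two-sided, labels exchanged within each age) were added after seeing the data. Spans came from GENCODE and promoters from RefSeq.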

Additional observations from a re-analysis of the deposited data

How the results depend on the processing

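None of the 7 tested layer genes was called in any of the alternatives, nor in any fit that left out a library (0 to 0 calls in each comparison). Not all 7 were tested in each alternative. The filter at 5 FPKM kept 3 of them, and the fit of the 10-month libraries alone kept 5. Over 42 pairs of gene and comparison, 849 of 912 refitted values kept their direction, 61 reversed, 47 of them when a library was left out, and 2 became 0, *Rorb* at 10 months without the 10-month control replicate 2 and *Tle4* at 10 months without the 10-month control replicate 1, where both groups were then listed at 0. The 849 values include refits that could not change direction. Leaving out a library outside a comparison of 2 groups left its log2 difference as it was. So did the changes of filter, moderation, age pooling and replicate block. The smallest adjusted p was 0.583.

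Fits without a filter kept all genes above 0 in at least 3 libraries. The number of all tested genes called by limma was small and moved with the settings. At 10 months it was 1, and became 0 with each age alone, 0 with a filter at 5 FPKM, 2 without a filter, 0 with a replicate block and 0 with very low values set missing. At 3 months it was 4, and became 14 with each age alone, 2 with a filter at 5 FPKM and 9 without a filter. For the interaction it was 5, and became 1 with a filter at 5 FPKM, 9 without a filter, 2 with 0.01 FPKM added, 1 with a replicate block and 1 with very low values missing. For age in TAU58/2 it was 2, and became 6 without trend and robust moderation and 7 without a filter. For age in control it was 3, and became 0 with a filter at 5 FPKM and 7 without one. For the average over ages it was 5, and became 2 with a filter at 5 FPKM, 9 without one, 1 with a replicate block and 2 with very low values missing. Leaving out single libraries gave 0 to 8 calls at 10 months, 4 to 12 at 3 months, 2 to 11 for the interaction, 2 to 13 and 3 to 10 for age in TAU58/2 and control, and 1 to 10 for the average. The cause was not tested, beyond the fewer or further genes and samples these settings test.

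Log2 differences that reversed under library weights were 0.17 for *Cux1* and 0.25 for *Fezf2* at 10 months, 0.29 for *Tle4* in the interaction and 0.38 for *Tbr1* for age in TAU58/2. Under quantile normalization, *Cux1* at 10 months was 0.0651 and *Tbr1* for age in TAU58/2 0.0093. With very low values missing, *Fezf2* was 0.65 at 3 months, -0.67 in the interaction, -0.21 for age in TAU58/2 and 0.32 averaged over ages, *Neurod6* was 0.15 at 3 months and 0.0069 averaged, *Cux2* was -0.34 and *Tbr1* 0.79 for age in TAU58/2. The cause was not tested.

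Ranges over fits without single libraries, where a sign changed, were as follows. At 10 months they were -0.15 to 0.20 for *Cux1* and -1.02 to 0.50 for *Fezf2*. At 3 months they were -0.49 to 1.76 for *Cux2*, -2.71 to 0.65 for *Fezf2*, -2.49 to 1.60 for *Neurod6*, -1.91 to 1.08 for *Rorb* and -2.70 to 0.33 for *Tle4*. In the interaction they were -0.67 to 2.69 for *Fezf2*, -3.96 to 0.77 for *Neurod6*, -2.64 to 0.34 for *Rorb*, -0.96 to 0.93 for *Tbr1* and -1.98 to 1.06 for *Tle4*. For age in TAU58/2 they were -0.34 to 1.29 for *Cux2*, -0.21 to 3.15 for *Fezf2*, -3.78 to 0.95 for *Neurod6* and -1.06 to 0.83 for *Tbr1*. For age in control they were -0.15 to 1.46 for *Fezf2* and -1.27 to 1.71 for *Neurod6*. Averaged over ages they were -0.0008 to 0.24 for *Cux1*, -0.61 to 0.52 for *Cux2* and -1.36 to 0.32 for *Fezf2*.

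The shared replicate numbers did not pair the samples, since deviations of same-numbered libraries from their group means correlated at -0.12 to 0.01. With the replicate block, *Tbr1* had an adjusted p of 0.979 at 10 months and 1.0 at 3 months and an unadjusted p of 0.0293 averaged over ages. The block changed no call among the layer genes. With 3 libraries a group and exact zeros in 5 of the 9 genes, differences smaller than the intervals given could not be detected.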

Other observations

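Several genes outside the layer factors also had a high and a low level among libraries of the same group. *Rprm*, a layer 6 marker also known as Reprimo, was at 0, 0 and 49.0 FPKM in TAU58/2 and 44.5, 0 and 4.27 FPKM in control libraries at 10 months. It was at 59.5, 0 and 0 FPKM in TAU58/2 and 0, 54.1 and 0 FPKM in control libraries at 3 months. *Pou3f3*, a POU-domain factor of upper-layer neurons, was at 6.01, 0.228 and 0.0942 FPKM in TAU58/2 and 6.54, 0.111 and 0.308 FPKM in control libraries at 10 months. These 2 genes were chosen after their values were seen.

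Among inhibitory neuron and astrocyte genes, the rule for named genes gave *Sst*, the somatostatin gene of a class of interneurons, with 304, 286 and 400 FPKM in TAU58/2 and 0, 267 and 0.495 FPKM in control libraries at 10 months (limma adjusted p = 0.969). The GABA-synthesis gene *Gad2* had 6.39, 4.22 and 0 FPKM in TAU58/2 and 16.7, 19.2 and 3.34 FPKM in control libraries at that age, with overlap. *Slc1a2*, the main astrocyte glutamate transporter, had 7.96, 10.3 and 3.66 FPKM in TAU58/2 and 44.2, 158 and 165 FPKM in control libraries at 10 months, without overlap, as for 8.26% of all tested genes (log2 difference -3.95, SE 1.26, limma adjusted p = 0.969). *Gja1*, the astrocyte gap junction gene, had a difference of the opposite sign, with 41.5, 39.7 and 41.2 FPKM in TAU58/2 and 0.909, 43.2 and 0 FPKM in control libraries at that age (log2 difference 4.64, SE 2.22). At 3 months *Slc1a2* had 4.43, 13.5 and 149 FPKM in TAU58/2 and 16.7, 170 and 129 FPKM in control libraries, with overlap. The rule also gave the astrocyte gene *Fgfr3* (log2 difference 0.85, SE 0.37) and the interneuron gene *Dlx6os1* (-2.12, SE 0.91) at 3 months, and the myelin genes *Opalin* (2.23, SE 0.50) and *Mag* (1.07, SE 0.38) at 10 months. None of these passed the test.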
